A study of Mus musculus with 6 samples.

Results

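The developmental and lineage transcription factors were taken by name: they are the 54 genes, of 7384 listed, whose symbols begin as those of genes of the Hox, Fox, Sox, Tbx, Gata, Meis, Pbx, Prrx, Twist, Nkx, Msx, Dlx, Irx, Tcf21, Mef2, Hand, Zeb, Snai, Lhx, Meox, Pitx, Runx and sine oculis homeobox families do, with Sox17 and Sox18 left out. Of the sine oculis homeobox family Six5 was found, and no gene beginning with Irx, Tcf21 or Pitx was analysed here. The name also takes in Dlx6os1, an antisense RNA, and Runx1t1, a co-repressor that bears the name of Runx1 but does not bind DNA through a runt domain, so 53 of the 54 are annotated as protein-coding. Their expression was measured by RNA sequencing in smooth muscle cells cultured from mouse aorta, in 3 libraries from cells given a small interfering RNA against Sirt6 for 48 h (siSirt6) and 3 from control cells at 48 h (Control). Sirt6 encodes a nuclear deacylase of the sirtuin family that acts on chromatin. The strain, age and sex of the mice, the treatment of the control cells and whether the 3 libraries of a group came from separate cultures are not stated in the sources; p-values then measure only the spread between these libraries, which may be technical.

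Apart from Dlx6os1 and Runx1t1, these factors bind DNA in a sequence-specific way and are known for setting up the identity of cells in the embryo. Hox genes lie in clusters and give cells of the body axis their position, with Meis and Pbx proteins of the TALE class as DNA-binding partners. Smooth muscle of the aorta comes from several embryonic sources, and cells grown from it are known to go on expressing many such factors. Mef2 factors, Gata6 and Prrx1 are known regulators of muscle or mesenchymal genes in the vessel wall, while Snai, Twist and Zeb factors promote the mesenchymal state.

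The values used are normalised read counts, whole reads divided by a factor for each library. The listed genes took between 14458847 and 15526399 reads per library. Sirt6 itself had 44.5, 59.8 and 63.5 normalised reads in siSirt6 libraries and 251.7, 257.0 and 270.4 in Control libraries, so the labels and the targeted gene go together. Of the genes tested, 99.8% passed an adjusted p of 0.05 (limma, Benjamini-Hochberg), and the tables thus hold almost only genes that differ. Passing the test is therefore no result about a listed gene, and what follows describes direction and size. Of the smooth muscle markers Acta2, Tagln, Myh11, Cnn1, Smtn, Lmod1, Des, Actg2, Mylk and Synpo2, 8 were listed, with summed normalised read counts of 104851.1 to 105969.6 in siSirt6 and 65164.1 to 65381.6 in Control. Of the 8, 6 rose and 2 fell. Acta2 alone made up most of that sum, with a mean of 96840 in siSirt6 and 58250 in Control. Of 10 endothelial markers, 8 were listed and all 8 rose (summed 1822.6 to 1969.7 in siSirt6, 1000.2 to 1154.7 in Control). Of 10 markers of adventitial fibroblasts, 8 were listed, 3 rose and 5 fell (summed 75842.7 to 77130.9 in siSirt6, 91304.4 to 92276.6 in Control). Gsn made up most of the fibroblast sum, with a mean of 57430 in siSirt6 and 72100 in Control. The summed ranges of 3 listed leukocyte markers of 10 were 1977.6 to 2017.9 in siSirt6 and 1776.9 to 1821.7 in Control. All 3 rose, with 0 called higher under listed totals. After correction for transcript length and GC content 0 of them were called higher and 1 lower. The summed ranges of 5 listed mesothelial markers of 6 were 2498.7 to 2619.4 in siSirt6 and 2172.2 to 2216.9 in Control, with 3 higher and 2 lower. Among the 8 Schwann cell and neuron markers, 5 were listed, summing to 3240.0 to 3393.7 in siSirt6 and 1899.8 to 1952.8 in Control; of the 4 tested, Tubb3 rose 2.26-fold and 3 fell. Of 7 cardiac muscle markers, Tnnt2 alone was listed, and it rose 1.48-fold. In these bulk libraries, fewer cells of a type and less RNA per cell cannot be told apart, and the part of these markers' cells in the results below was not tested.

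Most of the listed developmental factors were lower after Sirt6 knockdown, and factors not listed could not be counted. Of the 54, 52 passed the filter on low values, and of these 17 rose and 35 fell, so 67.3% were lower against a background of 49.3% of all tested genes, and 32.7% were higher against 50.5%. The median log2 fold change over the 52 was -0.34, beside 0.09 over all 7179 genes tested. Without the antisense RNA Dlx6os1, 17 rose and 34 (66.7%) fell, with a median of -0.32. Together the 54 took 0.189% ± 0.0027 of the summed listed values in siSirt6 and 0.232% ± 0.0031 in Control (SD, n = 3 each). The listed total was itself 8.58% higher in siSirt6 on average. The values of the 54 alone summed to 28414.0 to 29168.3 in siSirt6 and 32306.4 to 33069.1 in Control. At least 1.5-fold changes, on the scale of log2(value + 1), were seen upward in 6 of the 52 factors, a share near the background of 11.1%. Downward they were seen in 10, or 19.2%, Dlx6os1 among them, with a background of 12.0%. The libraries of the groups did not overlap for 50 of the 52 (background 96.8%), 16 higher (background 49.0%) and 34 lower (background 47.8%). With p adjusted over all 55536 annotated genes, 47 passed (background 90.3%), 15 higher and 32 lower (backgrounds 45.9% and 44.4%). The 5 that did not pass were Foxf2, Hoxb2, Runx1t1, Dlx5 and Msx1. Long transcripts were lower in siSirt6 in general. A smooth trend of the fold change on length and GC content was therefore removed in a further fit, called trend-corrected here, in which 12 factors were higher and 27 lower (backgrounds 37.5% and 36.7%), with a median of -0.21 beside -0.01 over all genes. Scaling to listed totals lowered the median of all genes by 0.119 on the log2 scale and gave 15 higher and 35 lower factors (backgrounds 37.7% and 49.7%).

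**Figure D1:**
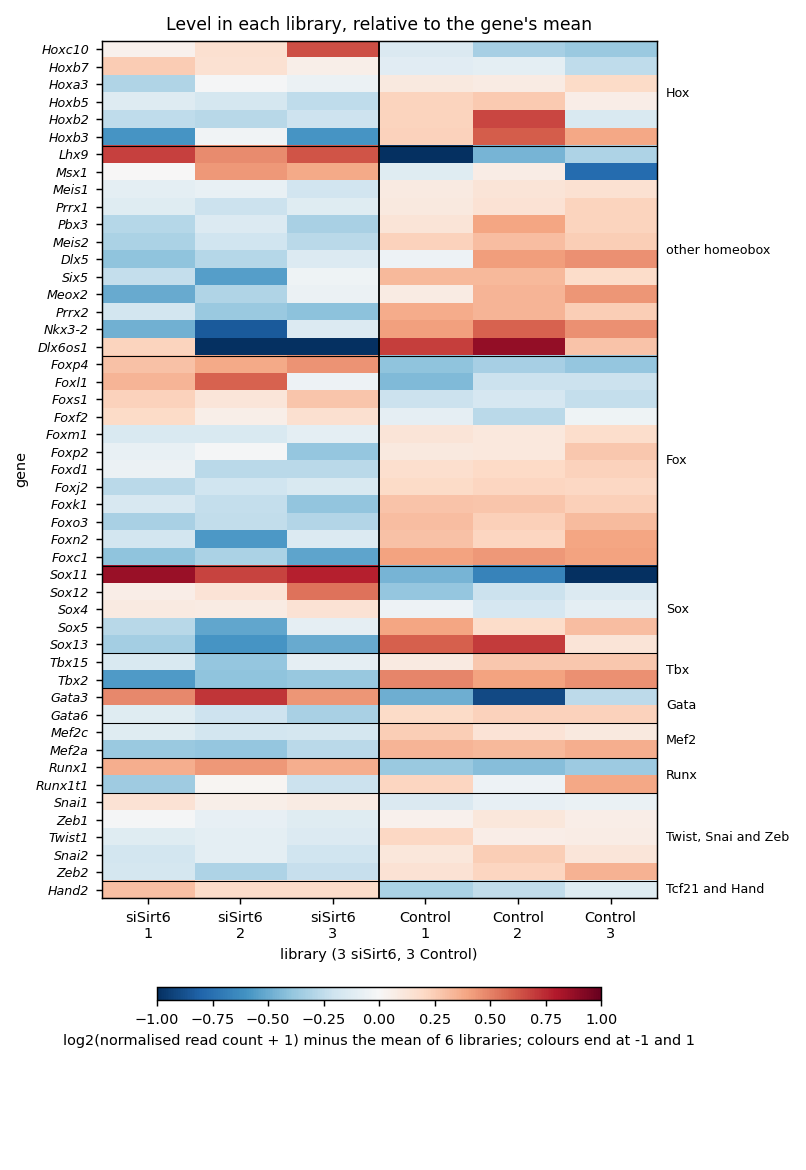
Level of 49 of the 52 tested factors in each library (columns, 3 siSirt6 then 3 Control) as log2(normalised read count + 1) minus the gene's mean over the 6 libraries; rows are grouped by family, and colours end at -1 and 1. Of the 49 rows, 15 are higher in siSirt6 and 34 lower, with the libraries of the groups overlapping for Msx1 and Runx1t1.

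Transcript abundance per kilobase differed widely among the factors. Per kilobase of the longest annotated transcript, Snai1 had the highest level, at 1839 normalised reads in siSirt6 and 1608 in Control. Foxs1 followed with 1701 in siSirt6 and 1273 in Control, and the paired-related homeobox genes Prrx2 (602 in siSirt6, 938 in Control) and Prrx1 (530 in siSirt6, 657 in Control) came next. At the low end of those tested, Sox11 stood at 6.25 per kilobase in siSirt6 and 2.11 in Control, and Dlx6os1 at 1.75 in siSirt6 and 4.08 in Control. Exon bases are shared with another annotated gene for 22 of the 54, in 19 cases with a gene on the opposite strand, and 0 of those overlapping genes were listed. The library kit marks strand, but no source states that the counting used it. Reads on the shared bases of such a pair thus cannot be told apart for these 22, among them Mef2a, Runx1, Meis1, Hand2, Zeb1, Zeb2, Gata3, Gata6, Hoxa3, Hoxb2, Hoxb3, Hoxb5, Hoxc10, Foxq1, Sox4 and Sox5. The shared stretches differed in size, with 3200 bases in Foxq1, 2616 in Sox4, 2250 in Hoxb3 and 1330 in Sox5. They were short in Runx1 (106) and Gata6 (93).

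Hox genes went in both directions: of 7, 3 rose and 4 fell (median log2 fold change -0.24). Hoxb3 had the largest change of the 7. It had normalised read counts of 59.3, 87.6 and 59.3 in siSirt6 and 105.4, 137.3 and 117.8 in Control. Every siSirt6 library was below every Control library, at 0.572 of the Control mean (log2 fold change -0.81 ± 0.166 SE, adjusted p = 4.86e-05). Its neighbour Hoxb5 fell to 0.773 of Control (218.1 ± 9.25 in siSirt6, 282.2 ± 19.9 in Control, SD, n = 3 each). Hoxb2 stood at 49.4, 48.5 and 51.0 in siSirt6 and 69.3, 94.4 and 53.1 in Control. The Control libraries of Hoxb2 were spread widely, and its call was lost without Control replicate 2, at a log2 fold change of -0.28 (adjusted p = 0.204) in place of -0.49.

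Hoxb7, of the same cluster, rose, with 559.7, 523.7 and 490.2 normalised reads in siSirt6 and 434.2, 439.1 and 395.0 in Control (log2 fold change 0.31 ± 0.072 SE). All siSirt6 libraries were above all Control libraries, yet the value was 0.19 under listed totals and 0.00 after trend correction. The 4 listed Hoxb genes lie between 96286623 and 96354012 on chromosome 11 (GRCm38, plus strand), with gaps of 13.2 kb from Hoxb7 to Hoxb5, 17.2 kb from Hoxb5 to Hoxb3 and 2.6 kb from Hoxb3 to Hoxb2. Hoxa3, on the minus strand of chromosome 6, fell to 0.847 of Control (347.6 ± 36.1 in siSirt6, 410.6 ± 16.7 in Control). The fall of Hoxa3 was not called without siSirt6 replicate 1 (log2 fold change -0.16, adjusted p = 0.0701). Hoxc10, a posterior Hox gene, rose 1.51-fold (71.2, 77.3 and 108.2 in siSirt6, 62.4, 54.5 and 53.1 in Control), but siSirt6 replicate 3 was the highest and without it the call was lost (log2 fold change 0.39, adjusted p = 0.0632), as it was after trend correction (0.38, adjusted p = 0.0558).

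**Figure D2:**
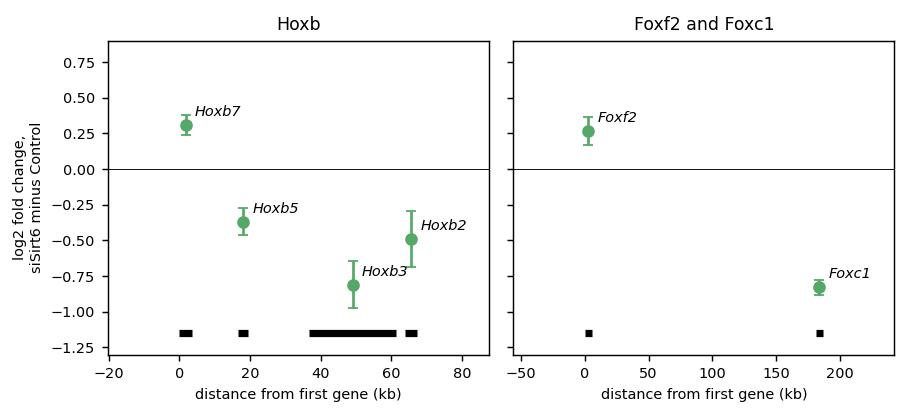
Log2 fold change, siSirt6 minus Control, of factors that are neighbours in the genome (points, with the standard error as bars) against the distance in kb from the first gene of each group; black blocks at the bottom mark the extent of each gene. In each panel the gene drawn at the left was higher in siSirt6 (Hoxb7 0.31, Foxf2 0.27) and those to its right were lower. After trend correction Hoxb7 was at 0.00 and Foxf2 at 0.12. Other neighbours are not drawn, among them Foxq1, left of Foxf2. Dlx6os1 and Dlx5, also not drawn, both fell (-1.24 and -0.55).

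The TALE partners of Hox proteins Meis1, Meis2 and Pbx3 fell. Meis2 had 1021.5, 1108.2 and 1054.2 normalised reads in siSirt6 and 1496.8, 1574.4 and 1508.5 in Control, a fall to 0.695 with no overlap (log2 fold change -0.52 ± 0.044 SE, adjusted p = 1.60e-12). Pbx3 fell to 0.708 (218.6 ± 15.4 in siSirt6, 308.7 ± 29.4 in Control) and Meis1 to 0.844. Meis1 and Meis2 have long transcripts, and after trend correction Meis2 and Pbx3 remained lower (-0.25 and -0.45), while Meis1 was at 0.09 (adjusted p = 0.281).

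Among the other homeobox genes, Prrx1 and Prrx2, which mark limb and vessel mesenchyme, both fell. Prrx2 stood at 951.2, 838.1 and 814.9 in siSirt6 and 1397.3, 1370.9 and 1284.5 in Control, a fall to 0.643 (log2 fold change -0.64 ± 0.053 SE, adjusted p = 4.42e-12). Prrx1 fell to 0.808 (3461 ± 127.6 in siSirt6, 4286 ± 186.2 in Control). The members of the pair differ in length, Prrx1 at 6527 nt and Prrx2 at 1441 nt, and after trend correction Prrx1 went to 0.01 (adjusted p = 0.868) and Prrx2 to -0.89. Nkx3-2, a repressor in cartilage formation, fell to 0.51 of Control, with 22.7, 17.5 and 29.1 in siSirt6 and 42.9, 48.7 and 44.4 in Control. Six5 fell to 0.684, Meox2, a homeobox gene of vascular and somite cells, to 0.671, and Dlx5, a regulator of bone formation, to 0.674. The Dlx5 value was -0.86 after trend correction, but its call was lost with adjustment over all annotated genes (adjusted p = 0.0557) and in DESeq2 (adjusted p = 0.0727). Dlx6os1, transcribed 6.2 kb from Dlx5 on chromosome 6, was low, at 13.8, 5.2 and 5.2 in siSirt6 and 19.5, 22.4 and 14.5 in Control. Dlx3, filtered out as low, stood at 0.0, 0.0 and 1.0 in siSirt6 and 2.0, 5.8 and 5.8 in Control.

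Lhx9 and Msx1 were the listed homeobox genes outside the Hox clusters that rose. Lhx9, a LIM-homeobox gene of gonad and limb development, had 33.6, 28.9 and 32.3 normalised reads in siSirt6 and 9.8, 14.6 and 16.4 in Control. No Control library reached the lowest siSirt6 library, and the rise was 2.32-fold (log2 fold change 1.19 ± 0.304 SE, adjusted p = 6.52e-04). Msx1, a target of BMP signalling, stood at 70.2, 94.8 and 91.6 in siSirt6 and 64.4, 74.0 and 40.6 in Control. Its groups overlapped, and without Control replicate 3 the call was lost, at a log2 fold change of 0.29 (adjusted p = 0.132) in place of 0.54; after trend correction it was 0.31 (adjusted p = 0.146).

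**Figure D3:**
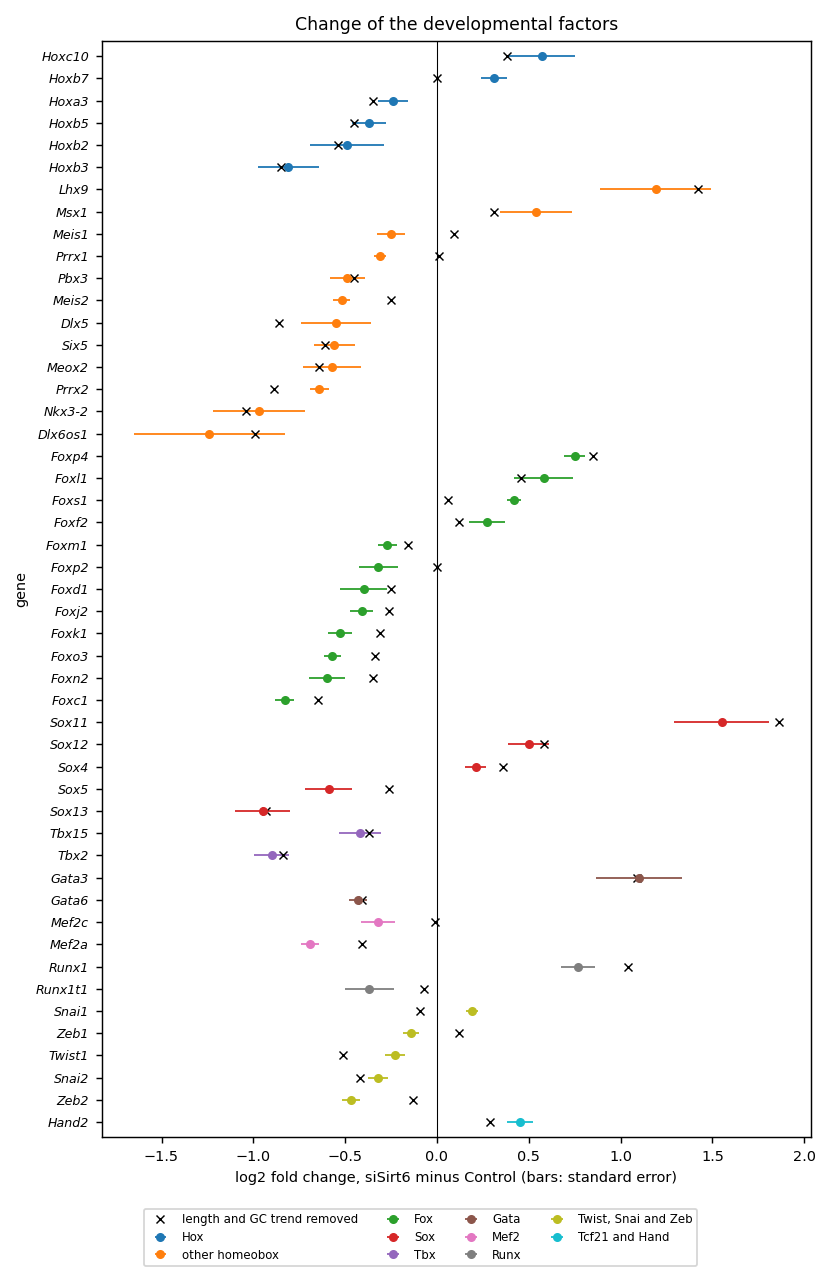
Log2 fold change, siSirt6 minus Control, of 49 of the 52 tested factors (filled points, coloured by family, with the standard error as bars) and the same value after trend correction (crosses). The values run from -1.24 for Dlx6os1, an antisense RNA, to 1.55 for Sox11. The lowest value of a protein-coding gene is -0.97, for Nkx3-2.

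Forkhead genes formed the largest family besides the homeobox genes, with 14 listed and 13 tested, of which 5 rose and 8 fell (median log2 fold change -0.32). Foxp4 rose 1.68-fold, with 930.5, 986.5 and 1040.7 in siSirt6 and 575.7, 604.6 and 581.4 in Control. The groups were far apart (log2 fold change 0.75 ± 0.056 SE, adjusted p = 9.11e-14), and the value was 0.85 after trend correction. Foxs1, known from pericytes and smooth muscle, rose 1.34-fold (2229 ± 122.6 in siSirt6, 1669 ± 40.0 in Control). Its transcript is short, 1311 nt, and after trend correction the value was 0.06 (adjusted p = 0.169). Foxl1, a mesenchymal forkhead gene, rose 1.52-fold (115.8 ± 25.4 in siSirt6, 76.1 ± 6.75 in Control). Foxq1, filtered out as low, stood at 5.9, 10.3 and 15.6 in siSirt6 and 2.0, 1.0 and 1.9 in Control.

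Foxc1, which acts in arterial and mural cell development, had the largest forkhead fall. It had 721.8, 765.9 and 660.8 normalised reads in siSirt6 and 1260.7, 1289.1 and 1262.3 in Control. The fall was to 0.564 of Control, with a wide gap between groups (log2 fold change -0.83 ± 0.052 SE, adjusted p = 9.42e-16), and remained -0.65 after trend correction. Foxo3, a factor restrained by insulin and Akt signalling, fell to 0.672, with 868.2, 913.4 and 885.6 in siSirt6 and 1340.7, 1280.3 and 1350.2 in Control, and was at -0.34 after trend correction. Foxn2 fell to 0.665 and Foxk1, a repressor of autophagy genes, to 0.693. Foxj2 and Foxd1 fell to 0.752 and 0.758, and Foxm1, the activator of mitotic genes, to 0.828 (751.0 ± 17.5 in siSirt6, 907.5 ± 24.7 in Control). After trend correction Foxn2, Foxk1, Foxj2 and Foxm1 were still lower, at -0.35, -0.31, -0.26 and -0.16. Foxp2 fell to 0.806, a value that was 0.00 after trend correction and was not called without siSirt6 replicate 3 (log2 fold change -0.20, adjusted p = 0.0666). After trend correction Foxd1 was at -0.25 and no longer called (adjusted p = 0.0767).

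Foxf2 and Foxc1 are neighbours on chromosome 13, with Foxq1 beside them. Foxq1 (31556134 to 31560976), Foxf2 (31625816 to 31631403) and Foxc1 (31806633 to 31812476) are all on the plus strand of GRCm38, with gaps of 64.8 kb and 175.2 kb. Foxf2, a mesenchymal factor of brain mural cells, was higher in siSirt6, at 267.0, 244.3 and 261.2, than in Control, at 219.5, 193.8 and 227.0. Its rise of 1.21-fold lost its call under listed totals (0.15), after trend correction (0.12), with adjustment over all annotated genes (adjusted p = 0.072), when Control replicate 2 was left out (0.20, adjusted p = 0.0666) and in both count tests (0.22).

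Promoter sequences were matched by symbol in RefSeq (GRCm38.p6) for 30 of the 54 factors, 11 higher and 19 lower in siSirt6. Each window runs from 250 bases before the start of the transcript to 50 after it, and 1 window was kept per gene. They are shown 5′ to 3′ for the neighbours Foxf2 and Foxc1 that went in opposite directions (chr13:31625566-31625865, plus strand, and chr13:31806396-31806695, plus strand), for 3 factors that rose and hold CACCTG, namely Foxp4 (chr17:47924583-47924882, minus strand), Runx1 (chr16:92826025-92826324, minus strand) and Snai1 (chr2:167537945-167538244, plus strand), for the largest rise of those tested, Sox11 (chr12:27342669-27342968, minus strand), and for a large fall, Mef2a (chr7:67372809-67373108, minus strand). Capitals mark CACCTG, the E-box that Snai and Zeb proteins are known to bind, and the CCAAT box, each on either strand (CAGGTG and ATTGG on the other), and the marked matches did not overlap.
Foxf2: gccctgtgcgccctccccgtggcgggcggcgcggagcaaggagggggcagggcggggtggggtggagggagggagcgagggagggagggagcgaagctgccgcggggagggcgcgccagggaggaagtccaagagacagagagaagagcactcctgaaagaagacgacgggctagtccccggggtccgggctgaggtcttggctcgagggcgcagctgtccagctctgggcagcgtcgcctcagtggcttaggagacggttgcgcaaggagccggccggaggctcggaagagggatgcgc
Foxc1: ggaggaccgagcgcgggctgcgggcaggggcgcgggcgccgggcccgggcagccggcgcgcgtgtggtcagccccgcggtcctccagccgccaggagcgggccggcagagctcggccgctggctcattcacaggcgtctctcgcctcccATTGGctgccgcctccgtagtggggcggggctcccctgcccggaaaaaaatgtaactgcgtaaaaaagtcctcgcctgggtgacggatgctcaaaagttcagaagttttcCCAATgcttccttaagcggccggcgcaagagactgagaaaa
Foxp4: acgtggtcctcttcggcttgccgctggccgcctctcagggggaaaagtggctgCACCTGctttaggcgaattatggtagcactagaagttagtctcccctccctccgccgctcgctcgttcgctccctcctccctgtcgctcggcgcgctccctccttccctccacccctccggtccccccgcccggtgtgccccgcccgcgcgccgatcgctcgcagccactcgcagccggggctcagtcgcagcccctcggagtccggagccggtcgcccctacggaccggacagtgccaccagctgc
Runx1: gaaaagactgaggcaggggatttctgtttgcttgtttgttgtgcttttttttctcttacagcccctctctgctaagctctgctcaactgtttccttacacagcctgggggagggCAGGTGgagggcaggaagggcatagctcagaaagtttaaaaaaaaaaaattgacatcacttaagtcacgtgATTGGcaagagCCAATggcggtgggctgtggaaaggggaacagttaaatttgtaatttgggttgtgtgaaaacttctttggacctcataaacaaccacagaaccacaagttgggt
Snai1: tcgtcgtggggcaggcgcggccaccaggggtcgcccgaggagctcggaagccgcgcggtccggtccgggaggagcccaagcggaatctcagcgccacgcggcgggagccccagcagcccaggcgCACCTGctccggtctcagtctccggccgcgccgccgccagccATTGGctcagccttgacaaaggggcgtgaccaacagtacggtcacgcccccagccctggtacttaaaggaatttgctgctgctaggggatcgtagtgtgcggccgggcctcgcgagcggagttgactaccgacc
Sox11: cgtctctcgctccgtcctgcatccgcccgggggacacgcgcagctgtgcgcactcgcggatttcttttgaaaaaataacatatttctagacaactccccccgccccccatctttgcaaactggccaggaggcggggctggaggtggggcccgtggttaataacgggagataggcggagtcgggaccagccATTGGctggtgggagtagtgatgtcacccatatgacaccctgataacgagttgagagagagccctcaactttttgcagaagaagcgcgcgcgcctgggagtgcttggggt
Mef2a: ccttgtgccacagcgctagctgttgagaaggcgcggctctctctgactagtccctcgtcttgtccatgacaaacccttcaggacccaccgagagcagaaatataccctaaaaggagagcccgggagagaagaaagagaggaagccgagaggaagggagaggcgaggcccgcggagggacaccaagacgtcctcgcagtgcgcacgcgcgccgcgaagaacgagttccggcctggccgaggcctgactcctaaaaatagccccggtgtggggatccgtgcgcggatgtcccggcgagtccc
CACCTG was found in 4 of the 11 windows of factors that rose (Foxp4, Msx1, Runx1 and Snai1) and in 0 of the 19 of factors that fell, beside 19.9% of all 27025 promoter windows and 15.2% of the 5538 windows of listed genes. After trend correction Foxp4 (0.85) and Runx1 (1.04) were higher, Msx1 (0.31) was not called and Snai1 (-0.09) was called lower. The backgrounds are not split by direction, and a link between motif and direction was not tested. CCAAT was found in 8 of the 11 that rose and 8 of the 19 that fell, beside 37.9% of all windows and 37.7% of those of listed genes. The forkhead core TGTTTAC, on either strand, was in 1 of 11 (Sox12) and 0 of 19, beside 3.51% of all windows and 2.33% of those of listed genes. ACGTG, the core bound by hypoxia-inducible factors, was in 3 of 11 and 3 of 19, beside 19.6% of all windows and 26.1% of those of listed genes. TATAAA was in 0 of 11 and 4 of 19, beside 14.2% of all windows and 7.58% of those of listed genes. GGGCGG was in 7 of 11 and 9 of 19, which is 53.3% of the 30, beside 36.0% of all windows and 66.3% of those of listed genes. The median count of CG dinucleotides per window was 20 in the 30 factors, 21 in listed genes and 7 in all windows, so windows rich in CG were common among the factors as among listed genes. A match describes letters in a window and is not a bound site.

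Sox genes, which bend DNA through an HMG box, were split, with 3 of 5 higher and 2 lower. Sox11, a neural and mesenchymal progenitor factor on chromosome 12 (27334264 to 27342574, minus strand), was low and had the largest rise of the 52 factors tested. It stood at 55.4, 48.5 and 52.0 in siSirt6 and 21.5, 18.5 and 12.6 in Control. All siSirt6 libraries were above all Control libraries, at 2.97-fold (log2 fold change 1.55 ± 0.260 SE, adjusted p = 2.76e-06), and 1.86 after trend correction. Its relatives of the SoxC group rose less: Sox12 1.43-fold (238.3, 250.5 and 332.0 in siSirt6, 173.7, 195.7 and 206.7 in Control) and Sox4 1.16-fold (803.0 ± 21.2 in siSirt6, 695.1 ± 28.7 in Control). Sox4 was not called under listed totals (0.09, adjusted p = 0.126) and was at 0.36 after trend correction. The listed SoxD genes fell. Sox13 went to 0.508 (91.0, 76.3 and 81.2 in siSirt6, 174.7, 187.9 and 126.5 in Control). Sox5, which acts with Sox9 in cartilage, went to 0.667. After trend correction Sox13 stayed at -0.93, and Sox5 was at -0.26 (adjusted p = 0.0597).

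**Figure D4:**
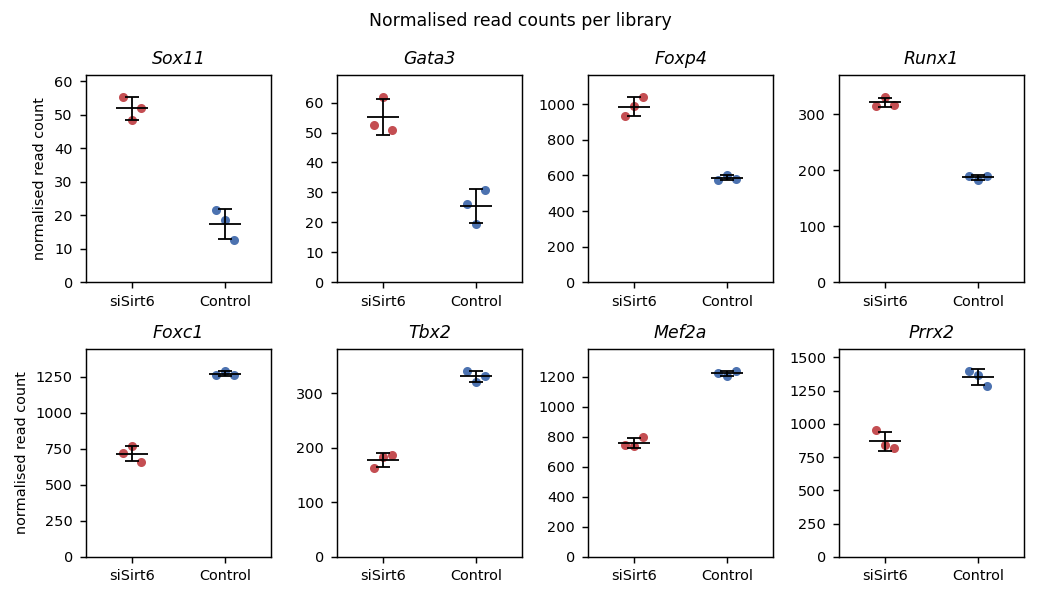
Normalised read counts of 8 factors in each library (points), with the mean and SD of each group of 3 (bars), siSirt6 left of Control; every axis starts at 0. Sox11, Gata3, Foxp4 and Runx1 were higher in siSirt6, and Foxc1, Tbx2, Mef2a and Prrx2 lower, with no overlap between the groups.

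Both listed T-box genes fell. Tbx2, a repressor of cell cycle inhibitors that acts in heart and limb development, had 163.2, 183.5 and 186.3 normalised reads in siSirt6 and 340.5, 320.3 and 332.2 in Control. It was at 0.537 of Control with no overlap (log2 fold change -0.90 ± 0.095 SE, adjusted p = 3.65e-10), and at -0.84 after trend correction. Tbx15 fell to 0.747 (146.1 ± 15.3 in siSirt6, 195.6 ± 13.9 in Control). The GATA zinc-finger genes went apart. Gata6, a regulator of the differentiated state of vascular smooth muscle, fell to 0.741, with 1171.8, 1104.1 and 1015.7 in siSirt6 and 1454.9, 1496.5 and 1491.2 in Control (log2 fold change -0.43 ± 0.047 SE, adjusted p = 5.44e-10). Gata3, best known from T cells, was low and rose 2.15-fold, with 52.4, 61.9 and 51.0 in siSirt6 and 26.3, 19.5 and 30.9 in Control. Hand2, a basic helix-loop-helix factor of heart and neural crest, rose 1.37-fold (589.3, 543.3 and 543.2 in siSirt6, 383.5, 402.1 and 439.4 in Control), and was at 0.29 after trend correction.

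Of the MADS-box genes, Mef2a fell most. It had 747.5, 736.0 and 799.2 normalised reads in siSirt6 and 1223.6, 1207.3 and 1239.1 in Control. Every siSirt6 library was below every Control library, at 0.622 of Control (log2 fold change -0.69 ± 0.049 SE, adjusted p = 2.74e-14), and at -0.41 after trend correction. Mef2c fell to 0.801 (227.0 ± 4.73 in siSirt6, 283.5 ± 15.2 in Control), a value of -0.01 after trend correction (adjusted p = 0.915). Runx1, a regulator of blood formation, rose 1.71-fold, with 315.4, 330.9 and 316.4 in siSirt6 and 189.3, 182.1 and 190.3 in Control. The groups did not overlap (log2 fold change 0.77 ± 0.092 SE, adjusted p = 4.61e-09), and the value was 1.04 after trend correction. Runx1t1 fell to 0.773 with overlapping groups (109.8, 143.3 and 121.8 in siSirt6, 163.9, 136.3 and 184.5 in Control), and lost its call when Control replicate 3 (-0.27, adjusted p = 0.0838) or siSirt6 replicate 1 (-0.28, adjusted p = 0.0691) was left out and after trend correction (-0.07).

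Among the factors of epithelial-mesenchymal transition, Snai1 rose and Snai2, Twist1, Zeb1 and Zeb2 fell. Snai1 stood at 3082.2, 2909.1 and 2950.3 in siSirt6 and 2521.4, 2633.7 and 2664.6 in Control, a 1.14-fold rise (log2 fold change 0.19 ± 0.033 SE), but at 0.07 under listed totals and -0.09 after trend correction (adjusted p = 0.0207). Its paralogue Snai2 fell to 0.799, with 692.2, 731.9 and 682.7 in siSirt6 and 850.9, 929.8 and 855.7 in Control, and was at -0.42 after trend correction. Twist1 fell to 0.851 (778.6 ± 10.4 in siSirt6, 914.8 ± 52.0 in Control) and was at -0.35 under listed totals and at -0.51 after trend correction. Zeb2 fell to 0.719, with 1219.2, 1108.2 and 1170.8 in siSirt6 and 1517.3, 1597.7 and 1752.9 in Control. Zeb1 changed least, to 0.906 (1172 ± 44.4 in siSirt6, 1293 ± 33.4 in Control), and was at -0.26 under listed totals. Both Zeb transcripts are long, and after trend correction Zeb2 was at -0.13 and Zeb1 at 0.12 (adjusted p = 0.0158), the other direction.

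Transcript length moved with the fold changes of all genes, and the factors were unevenly spread over it. The median longest transcript was 3878 nt for the 52 factors and 3383 nt for all tested genes. All tested genes were divided by length into 5 bins of nearly equal size. In the bin with the longest transcripts (5444 to 123179 nt), the median log2 fold change was -0.32 over all genes and -0.37 over the 16 factors there. Of these 16, 2 rose and 14 fell, and 20.84% of all genes in that bin were called higher. In the shortest bin (67 to 1799 nt) the median was 0.37 over all genes and -0.23 over 7 factors. Of these 7, 3 rose and 4 fell, and 82.06% of all genes in that bin were called higher. Over the bins in order from short to long, the factors' medians were -0.23, 0.36, -0.49, -0.03 and -0.37, with 7, 10, 9, 10 and 16 factors, beside 0.37, 0.22, -0.09, -0.25 and -0.32 over all genes.

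**Figure D5:**
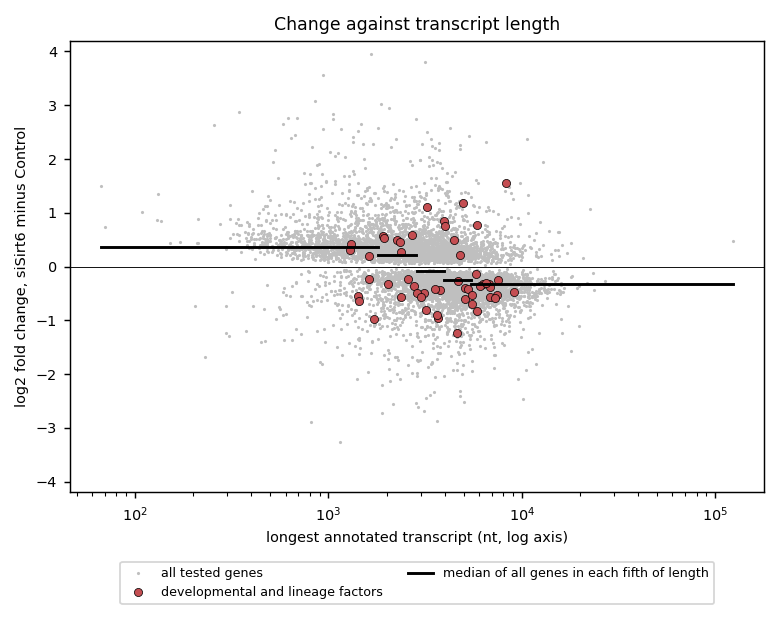
Log2 fold change, siSirt6 minus Control, against the length of the longest annotated transcript (log axis) for all tested genes with a length (grey) and the 52 factors (red); black lines are medians of all genes in each of 5 bins of length. The medians run from 0.37 in the shortest bin to -0.32 in the longest, and the empty band at 0 is the selection of differing genes in the tables.

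Genes that work with these factors or are known as their targets were described from 8 lists. Of 33 chromatin regulators and partners of Hox and TALE genes, 20 were tested, 7 rose and 13 fell (median -0.24): the Polycomb genes Phc2 and Cbx6 went to 1.20-fold and 0.824 of Control, and Kmt2a, a methyltransferase that maintains Hox expression, and its cofactor Wdr5 to 0.764 and 1.22-fold. After trend correction 7 of that list were higher and 7 lower, with Phc2 at 0.30, Wdr5 at 0.24, Kmt2a at -0.16 and Cbx6 at -0.04. Of 24 FoxO targets, 16 were tested, 7 rose and 9 fell (median -0.16), with 4 higher under listed totals. In that list Sesn3 and Sesn1, which restrain mTOR, fell to 0.527 and 0.549 and the cyclin-dependent kinase inhibitor Cdkn1b to 0.616, while the pro-apoptotic Pmaip1 rose 1.44-fold. Of 20 FoxM1 targets, 12 were tested and all 12 fell (median -0.30), with the kinesin Kif20a at 0.63, Ccna2 at 0.71, Top2a at 0.779 and the kinase Plk1 at 0.81; after trend correction 10 were lower and 0 higher.

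Of 17 Mef2 partners, 11 were tested, 3 rose and 8 fell (median -0.24), among the falls the orphan receptor Nr4a1 at 0.552, the co-repressor Ncor1 at 0.753, the kinase Camk2d at 0.79 and Klf4 at 0.817. Under listed totals 1 was higher and 8 lower. After trend correction 3 were higher and 6 lower, with Nr4a1 at -1.0, Klf4 at -0.35, Ncor1 at -0.12 and Camk2d at -0.07. Of 24 SRF cofactors and smooth muscle genes, 16 were tested, 9 rose and 7 fell (median 0.17). The contractile genes Acta2, Cnn1 and Lmod1 rose 1.66-, 1.64- and 1.34-fold and Smtn fell to 0.813; several of these genes are also smooth muscle markers above. Under listed totals that list had 6 higher and 7 lower, and after trend correction 10 higher and 3 lower. Of 28 genes of epithelial-mesenchymal transition, 17 were tested, 6 rose and 11 fell (median -0.20), with Sparc at 0.852, Col1a1 at 0.855, the mesenchymal cadherin Cdh11 at 0.676 and fibronectin Fn1 at 1.19-fold. Col1a1 went to -0.05 after trend correction. Of 25 Runx and Sox9 partners and osteochondrogenic genes, 10 were tested, Sox5 among them, 3 rose and 7 fell (median -0.51). The cartilage collagen Col2a1 rose 1.94-fold and osteopontin Spp1 1.31-fold, while Cbfb, the partner subunit of Runx proteins, fell to 0.656 and Bmp4 to 0.703. Of 19 cardiac and mesothelial genes, 4 were tested: the Gata cofactor Zfpm2 fell to 0.542 and Upk3b to 0.798, and Msln and Tnnt2 rose 1.34- and 1.48-fold (median 0.05, and -0.04 after trend correction). All medians are of log2 fold changes. Those of the main fit are to be read beside 0.09 over all tested genes, with backgrounds of 50.5% higher and 49.3% lower. Under listed totals the backgrounds were 37.7% higher and 49.7% lower, with a median of -0.03 over all genes. After trend correction they were 37.5% higher and 36.7% lower, with a median of -0.01.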

How the data were processed

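Smooth muscle cells from mouse aorta were sequenced in 3 siSirt6 and 3 Control libraries, made with a stranded mRNA kit per the labels' protocols. Trimmomatic, HISAT2, Cufflinks and HTSeq are listed with the build mm10 in the submitters' processing notes, with neither roles nor versions. The deposited signal values behave as gene read counts divided by 1 factor per library, from 0.9609 to 1.0354: 100.0% of the values under 1000 reads came out whole within 0.001 reads. The deposited genes look pre-selected for a difference, since row order followed the limma p (Spearman rho 0.988, across genes) and 13 of 7179 tested genes had an unadjusted p of 0.05 or more. Whole library depth is unknown, and 0 columns were without a sample.

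The main test was limma (version 3.58.1, R version 4.3.3), 2-sided, with a mean-dependent prior variance and robust moderation, applied to log2(value + 1), a scale that understates the change of low genes. The 7179 of 7384 genes that reached 10 normalised reads in 3 or more libraries entered the test, 205 were left out, and Benjamini-Hochberg adjustment ran over them. Fold values are ratios of group means of the deposited values. The test was also run on simulated data in which most genes were unchanged. Almost all genes in these tables differ, so that run cannot show how the test performs on them. Alternatives were TMM and listed-total scaling, other pseudocounts and filters, correction for a smooth trend (mgcv 1.9.3) on length and GC content of the longest transcript in GENCODE vM21 (GRCm38, also called mm10), edgeR 4.0.16 and DESeq2 1.42.0 on the recovered reads of 5 libraries, a replicate block, and leaving out each library; siSirt6 replicate 1 was left out of the count tests, since its step lay too near 1 read for an automatic check. Replicate numbers did not pair the libraries. Genes named were, per family, the 4 with the largest change and the 2 with the highest mean, those filtered out, and per list the 4 with the smallest p; other factors were added. The counts cover all 54 factors, and 3 of them are not reported singly here. The factors and lists were chosen with earlier results of these data known.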

Additional observations from a re-analysis of the deposited data

How the results depend on the processing

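Of the 52 factors tested, 27 kept their call in all 17 alternatives, 6 higher and 21 lower. Another 5 (Sox11, Gata3, Lhx9, Nkx3-2 and Dlx6os1) kept it in the 16 that gave a value for them, since the filter of mean 50 leaves them out. The call was lost or turned in some alternative for 20, 10 of them under some setting other than trend correction. After trend correction 37 of the 52 kept their call and direction, beside 4938 of 7166 calls over all tested genes. For calls kept in all 17 alternatives no share over all genes was computed. Higher and lower counts, 17 and 35, stayed within 1.5 times in every alternative, lowest at 12 and 27 after trend correction. Falls of at least 1.5-fold were 19 under listed totals, in place of 10, and rises 3 with a filter of mean 50, in place of 6, since that filter leaves out low genes. The factors' median, -0.34, was -0.37 with TMM, with the mean filter and with both count tests, -0.46 under listed totals and -0.21 after trend correction; the median of all genes, 0.09, was -0.03 under listed totals and -0.01 after trend correction. After trend correction Snai1 (-0.09) and Zeb1 (0.12) were called in the other direction, while Foxp2 (0.00), Hoxb7 (0.00), Meis1 (0.09) and Prrx1 (0.01) lay on the other side of 0 or at it and were not called. The cause of these differences was not tested. Over the sets without 1 library, 16 to 17 factors were higher, 33 to 35 lower, 7 to 9 at least 1.5-fold higher and 9 to 13 lower, the median lay between -0.36 and -0.33, and Sirt6 between -2.31 and -2.06; 3540 to 3577 of all genes were higher and 3445 to 3474 lower. Of 312 values of single factors so obtained, 304 kept their call and direction and 8 lost the call. DESeq2 lost 6 calls, among them those of Foxf2, Hoxa3, Hoxb2, Runx1t1 and Dlx5, and edgeR lost 2, those of Foxf2 and Runx1t1. Replicate numbers did not pair the libraries (correlations of deviations -0.019, 0.027 and -0.001), and with the replicate block 17 factors were higher and 35 lower, with Sirt6 at -2.21 and a median of -0.34. Low counts limit Sox11, Lhx9, Gata3, Dlx6os1, Nkx3-2 and the untested Foxq1 and Dlx3.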
